A study of Papio anubis with 25 samples.

Results

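The genes described here are 39 listed genes of skeletal muscle, chosen by symbol: the contractile filaments, the Z-disc and its links, the calcium cycle, and the energy and oxygen supply of the muscle fibre. Of these, 36 had a row among the 21287 genes of the deposited table, and MYH7, RYR1 and COX6A2 were not analysed here. Of the 36, 12 are known as genes of fast fibres and 8 as genes of slow fibres. By role, 8 belong to the thick filament, 9 to the thin filament, 8 to the Z-disc, titin and the cytoskeleton, 6 to calcium handling and the membrane, and 5 to energy and oxygen.

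The study took parotid, submandibular and sublingual salivary gland, pancreas and liver from the same 5 olive baboons (Papio anubis), 4 female and 1 male (baboon 5), to ask where amylase genes are expressed. Each of the 25 libraries came from 3 frozen sections of 30 µm, so whatever lay within a section was sequenced with the organ. The labels give no strain, age or treatment, and the 5 groups differ by tissue alone. Values are TPM, the abundance of a gene's transcripts as a share of the library after correction for their length. Levels can therefore be compared between genes of the same library. Between libraries a share also depends on what else the library holds, so the tests were also run under other scalings. The number of reads behind a library is unknown. A library is named below by its tissue and its animal, so that sublingual 2 is the sublingual gland of baboon 2.

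Skeletal muscle shortens when myosin of the thick filament pulls on actin of the thin filament, a step that troponin and tropomyosin allow once calcium leaves the sarcoplasmic reticulum. Fast and slow fibres build the same machine from different gene copies: separate myosin heavy and light chains, troponins, myosin-binding proteins and calsequestrins. None of the 5 organs is a skeletal muscle, while the tongue and the floor of the mouth, beside which the sublingual gland lies, are rich in it.

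Sublingual 2 stood apart from the other 24 libraries, and the tests of sublingual gland are given with and without it. Its salivary acinar and duct markers (11 of 13 with a row) summed to 1485 TPM, the lowest of the 15 gland libraries, against 5362 to 325428 TPM in the other 4 sublingual libraries and 979 to 4483 TPM in liver. AQP5, the water channel of salivary acini, was at 2.61 TPM there. The pancreatic acinar markers summed to 158178 to 195631 TPM in pancreas and to at most 3736 TPM elsewhere, and the hepatocyte markers to 43277 to 75681 TPM in liver and to at most 1182 TPM elsewhere.

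In sublingual 2 the 36 skeletal muscle genes together reached 216539 TPM, 21.7% of the library. In the other 24 libraries they summed to between 104 and 2083 TPM, or 0.0104% to 0.208%, so sublingual 2 was 104-fold above the next library. The other sublingual sums were 1106 TPM in baboon 1, 1609 in baboon 3, 320 in baboon 4 and 322 in baboon 5. These lay inside the range of the organs that were not salivary: pancreas held 157 to 1233 TPM with a median of 838, and liver 104 to 1896 TPM with a median of 269. Parotid ranged from 115 to 1605 TPM (median 367) and submandibular gland from 180 to 2083 TPM (median 725). The 5 tissues therefore overlapped, and animals of the same tissue differed more than 5 times in each of them. In bulk tissue, fewer muscle fibres and less muscle RNA per cell cannot be told apart.

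**Figure D1:**
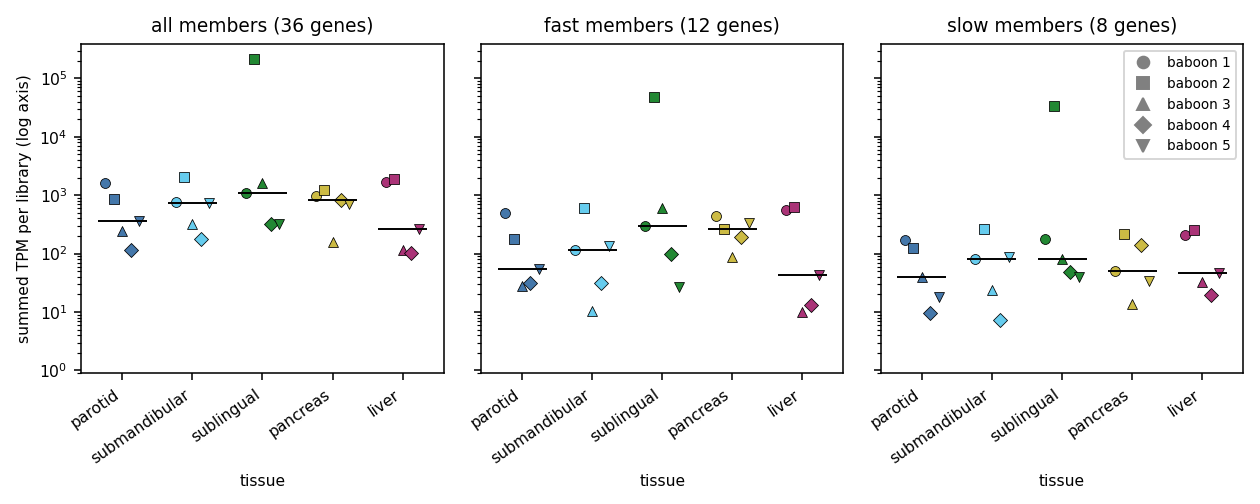
Summed TPM (log axis) of all 36 skeletal muscle genes, of the 12 fast fibre genes and of the 8 slow fibre genes in each library, by tissue; symbols mark the animal and bars the median of 5 animals. Sublingual 2 lies at 216539 TPM for all genes, and the other 24 libraries lie between 104 and 2083 TPM.

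Every one of the 36 genes was highest in sublingual 2, against 5.29% of the 17028 genes with at least 1 TPM in a library. In 34 of them its level was at least 10 times that of the next library, as it was for 209 genes in all (1.23%). The exceptions were CASQ2, the calsequestrin of slow and cardiac muscle, at 1.47 times submandibular 5, and MYH1, the heavy chain of fast type 2X fibres, at 2.11 times sublingual 3. At the other end stood sarcolipin (SLN), which restrains the calcium pump, at 160 times the next library. Of the 50 highest genes of sublingual 2, 18 were of the 36, and of the 100 highest, 23. Thin filament genes supplied 42.3% of the summed muscle TPM there, energy and oxygen genes 24%, thick filament genes 14.3%, calcium and membrane genes 10.6%, and Z-disc, titin and cytoskeleton genes 8.83%.

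**Figure D2:**
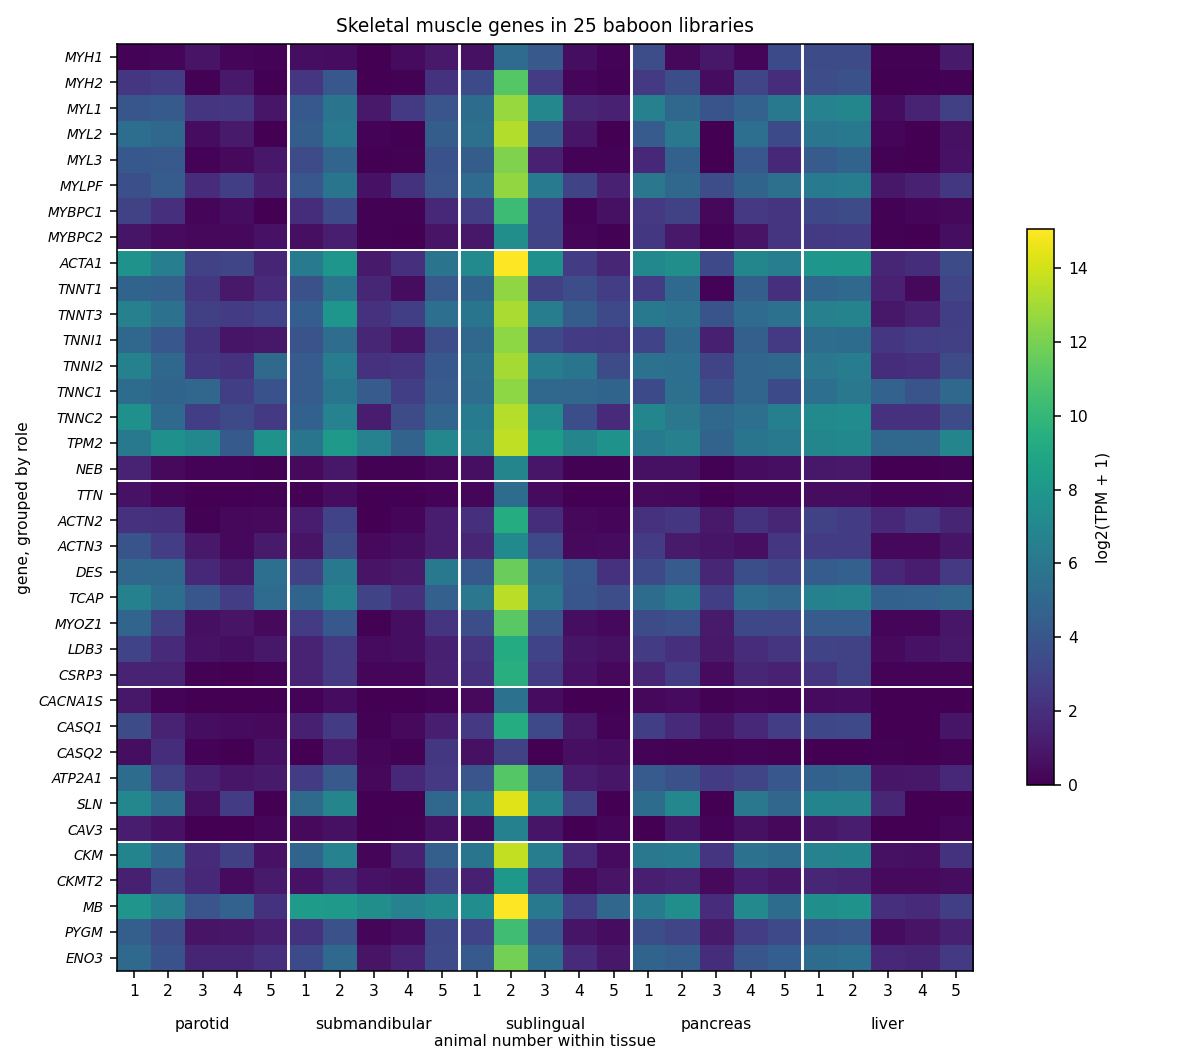
Log2(TPM + 1) of the 36 skeletal muscle genes (rows, grouped by role: thick filament, thin filament, Z-disc, calcium and membrane, energy and oxygen) in the 25 libraries (columns, 5 animals within each tissue). The sublingual 2 column is brightest in every row, and libraries 3 and 4 of liver are dark in most rows.

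In the thin filament, skeletal alpha-actin (ACTA1), the core of that filament, reached 33485 TPM in sublingual 2 and was the seventh highest gene of the library. The other sublingual values were 139 TPM in baboon 1, 190.3 in baboon 3, 5.10 in baboon 4 and 2.03 in baboon 5. Parotid had 202, 85.5, 6.39, 7.95 and 1.89 TPM in baboons 1 to 5, submandibular gland 68.4, 241, 1.15, 3.15 and 55.1, pancreas 128, 169, 8.90, 119.8 and 87.1, and liver 235, 250.3, 2.08, 2.84 and 9.68. Without sublingual 2, the ACTA1 levels of the 5 tissues overlapped, and baboons 1 and 2 had at least 68.4 TPM in all 5 tissues.

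Beta-tropomyosin (TPM2), which lies along actin and blocks the myosin sites at rest, varied less than ACTA1 outside sublingual 2. Its sublingual levels were 93.1, 12666, 314, 114 and 204 TPM in baboons 1 to 5, and its pancreas levels 72.3, 93.9, 26.5, 56.9 and 67.1 TPM. Only sublingual 1 fell inside the pancreas range. Over the 24 libraries other than sublingual 2, TPM2 ran from 18.4 to 314 TPM.

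Fast troponin C (TNNC2), the calcium sensor of fast fibres, was at 71.9, 10564, 154, 11 and 2.49 TPM in the sublingual glands of baboons 1 to 5. Its other values ran from 4.92 to 189 TPM in parotid, 1.20 to 101 in submandibular gland, 31.2 to 121 in pancreas and 3.40 to 160.1 in liver. Fast troponin T (TNNT3), which anchors the complex to tropomyosin, was at 9039 TPM in sublingual 2, and fast troponin I (TNNI2), the inhibitory subunit, at 8165 TPM. The slow counterparts were at 5915 TPM (TNNT1), 5817 TPM (TNNI1) and 5783 TPM (TNNC1) in the same library, so each fast subunit was above its slow partner. Slow troponin C (TNNC1), which heart muscle also uses, ran from 5.84 to 62.9 TPM outside sublingual 2. Nebulin (NEB), the giant ruler of the thin filament, was at 116 TPM in sublingual 2 and at most 1.85 TPM elsewhere.

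Among thick filament genes, the slow regulatory light chain MYL2 led with 9952 TPM in sublingual 2, followed by the fast essential light chain MYL1 with 6751 TPM and the fast regulatory light chain MYLPF with 6172 TPM. MYL2 was at 46.0, 18.1, 0.862 and 0 TPM in sublingual 1, 3, 4 and 5. In pancreas it was at 18.7, 63.8, 0, 44.0 and 9.54 TPM in baboons 1 to 5. MYL1 took another order over the same libraries, with 39.2, 124, 2.10 and 1.65 TPM in sublingual 1, 3, 4 and 5 and 91.0, 33.5, 14.1, 25.9 and 68.1 TPM in the 5 pancreas libraries. Thus sublingual 3 had more MYL1 than sublingual 1 but less MYL2, and pancreas 1 and 5 had more MYL1 than pancreas 2 and 4 but less MYL2. MYLPF put the libraries of both tissues in the order of MYL1: 36.6, 75, 7.52 and 1.60 TPM in the sublingual glands named, and 61.2, 33.5, 10.7, 28.4 and 46.6 TPM in pancreas. The essential light chain of slow fibres, MYL3, reached 4478 TPM in sublingual 2. The myosin-binding proteins, which brace the thick filament, reached 1288 TPM for the slow form MYBPC1 and 172 TPM for the fast form MYBPC2.

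The Z-disc joins neighbouring sarcomeres. Telethonin (TCAP), which caps the end of titin there, was at 60.2, 11541, 60.3, 15.5 and 10.9 TPM in the sublingual glands of baboons 1 to 5, and at 5.83 to 66.4 TPM in pancreas and 24.3 to 103 TPM in liver. Desmin (DES), the intermediate filament around the Z-disc, was at 17.0, 3129, 39.8, 16.7 and 3.46 TPM in the sublingual glands. Outside sublingual 2, DES was highest in submandibular 2 (68.0 TPM), submandibular 5 (67.5 TPM) and parotid 5 (44.6 TPM). Parotid 5 was low in actin, with 1.89 TPM of ACTA1, so the order of DES was not that of ACTA1. The calcineurin-binding protein of fast fibres, MYOZ1, was at 11.5, 2319, 14.4, 0.452 and 0.236 TPM in the sublingual glands and at 1.15 to 11.6 TPM in pancreas. The remaining genes of the group reached 698 TPM (CSRP3), 643 TPM (ACTN2), 612 TPM (LDB3), 142 TPM (ACTN3) and 38.9 TPM (TTN) in sublingual 2. The alpha-actinin of fast fibres, ACTN3, was also at 14.1 TPM in parotid 1 and 9.87 TPM in submandibular 2.

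Of the calcium and membrane genes, SLN was at 19979 TPM in sublingual 2 and at 66.8, 95.6, 6.15 and 0 TPM in sublingual 1, 3, 4 and 5. It was listed at 0 in 7 of the 25 libraries: parotid 5, submandibular 3 and 4, sublingual 5, pancreas 3, and liver 4 and 5. The fast calcium pump ATP2A1, which SLN binds, was at 14.4, 2161, 29.7, 1.3 and 0.908 TPM in the sublingual glands and at 5.37 to 19.3 TPM in pancreas. Fast calsequestrin (CASQ1), which stores calcium in the sarcoplasmic reticulum, was at 4.70, 636, 8.94, 0.980 and 0.127 TPM in the sublingual glands and at 0.769 to 5.97 TPM in pancreas. Slow calsequestrin (CASQ2) was low throughout: 6.36 TPM in sublingual 2, 4.32 TPM in submandibular 5, 2.92 TPM in parotid 2 and at most 1.24 TPM in the other 22 libraries. The voltage sensor of the T-tubule, CACNA1S, reached 50.6 TPM and the caveolin of muscle, CAV3, 94.9 TPM in sublingual 2.

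Muscle creatine kinase (CKM), which buffers ATP, was at 56.2, 12703, 79.0, 2.21 and 0.373 TPM in the sublingual glands, and at 3.97 to 68.7 TPM in pancreas. Muscle enolase (ENO3), a glycolytic enzyme, was at 18.3, 3839.9, 40.8, 2.47 and 0.919 TPM in the same glands and at 2.90 to 28.3 TPM in pancreas. The muscle glycogen phosphorylase PYGM reached 1374 TPM and mitochondrial creatine kinase CKMT2 254 TPM in sublingual 2. Outside it, CKMT2 was highest in parotid 2 (7.51 TPM) and submandibular 5 (7.50 TPM), the libraries that also came next in CASQ2. Those libraries held the most adipocyte marker RNA, with 22350.1 TPM in parotid 2 and 7222 TPM in submandibular 5 against 15.8 to 2842 TPM in the other 23, and its part in the CKMT2 and CASQ2 levels was not tested.

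Myoglobin (MB), which stores oxygen in oxidative fibres, was the highest of the 36 genes at 33743 TPM in sublingual 2, equal to 1.01 times ACTA1 there. It departed from ACTA1 in the submandibular gland, a pattern picked out after the values were seen. The 5 submandibular libraries held 314, 270.1, 173, 102 and 148 TPM of MB in baboons 1 to 5, beside 68.4, 241, 1.15, 3.15 and 55.1 TPM of ACTA1. MB per ACTA1 was thus 4.59, 1.12, 151, 32.3 and 2.69 in these libraries. In parotid it was 1.15, 1.08, 2.28, 3.17 and 1.93, in pancreas 0.304 to 1.11, and in liver 0.610 to 1.44. Sublingual 5, with 30.4 TPM of MB and 2.03 TPM of ACTA1, had a ratio of 15.0, and the other sublingual ratios ran from 0.351 to 1.21. All 5 submandibular libraries had at least 102 TPM of MB, whereas in each other tissue the lowest library had between 2.47 and 5.88 TPM. Submandibular 3 had 0.187 TPM of CKM and SLN listed at 0 beside its 173 TPM of MB.

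In the model described below, MB was 1.95 log2 units above pancreas in submandibular gland (SE 1.18, higher in 4 of 5 animals, adjusted p = 0.585 by limma), which did not pass the threshold. The log2 difference in MB between sublingual and submandibular gland was -0.29 (SE 1.18, adjusted p = 0.920 by limma), and without sublingual 2 it was -1.78 (SE 0.95, adjusted p = 0.213 by limma).

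**Figure D3:**
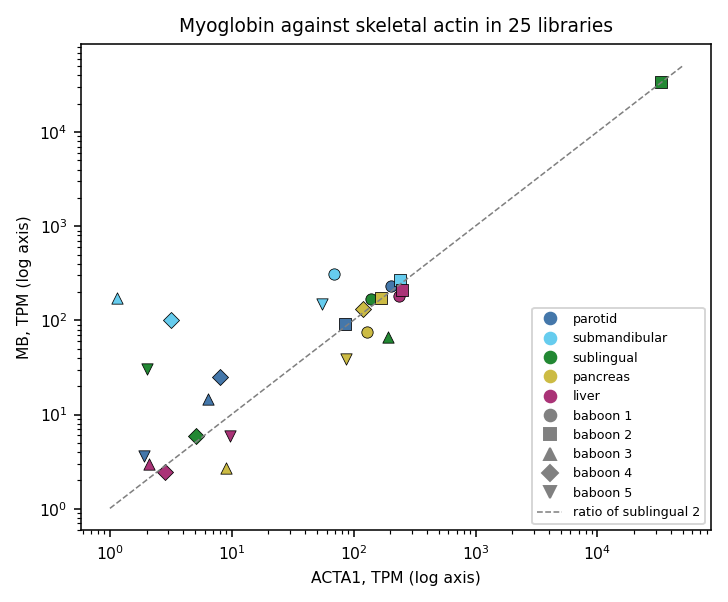
MB against ACTA1 in the 25 libraries, both in TPM on log axes; colour marks the tissue, symbol shape the animal, and the dashed line the ratio of sublingual 2 (1.01). Submandibular 3 and 4 lie far above the line with ratios of 151 and 32.3, and sublingual 5 with 15.0.

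Fast and slow genes differed in how they were spread over the other libraries. In sublingual 2 the 12 fast genes summed to 48332 TPM and the 8 slow genes to 33937 TPM. The mix can be read from pairs of fast and slow copies of a subunit within 1 library, in libraries where the pair reached 10 TPM. The slow form made up 39.6% of troponin T (TNNT1 with TNNT3), 41.6% of troponin I (TNNI1 with TNNI2), 35.4% of troponin C (TNNC1 with TNNC2), 61.7% of the regulatory light chain (MYL2 with MYLPF) and 39.9% of the essential light chain (MYL3 with MYL1) in sublingual 2.

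Pancreas libraries fell into different mixes. The slow share of troponin T was 40.2% in pancreas 2 and 38.0% in pancreas 4, but 7.49%, 0.661% and 5.84% in pancreas 1, 3 and 5. For the essential light chain the shares were 42.5% and 37.9% in pancreas 2 and 4, against 2.55%, 0% and 3.10% in pancreas 1, 3 and 5. The regulatory light chain repeated the split, with 65.6% and 60.8% against 23.4%, 0% and 17.0%. Pancreas 3 was near the limit of 10 TPM, with sums of 14.2 TPM for troponin T, 14.1 for the essential and 10.7 for the regulatory light chain. Troponin I gave 43.8% and 43.3% in pancreas 2 and 4 against 13.1% and 12.9% in pancreas 1 and 5, and pancreas 3 had too little of the pair. In all 4 of these pairs, pancreas 2 and 4 were within 3.89 percentage points of sublingual 2, and the other pancreas libraries were at least 28.5 points below it. Closeness to sublingual 2 was not particular to pancreas. Submandibular 1 had 36.3% for troponin T, 41.7% for troponin I, 56.9% for the regulatory and 37.1% for the essential light chain. In submandibular 2 the shares were 18.8%, 33.0%, 53.8% and 34.8%.

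Sublingual 3 resembled pancreas 1 and 5, with a slow share of 7.40% for troponin T, 9.95% for troponin I and 1.28% for the essential light chain. Sublingual 1 was near sublingual 2, with 32.2%, 40.6% and 34.3% for the same pairs. Liver 1 and 2 lay between these values, at 23.9% and 25.1% for troponin T and 15.7% and 19.0% for the essential light chain. Libraries of 1 animal could differ in mix: baboon 1 had 32.2% slow troponin T in the sublingual gland and 7.49% in pancreas. Baboon 3 had 40.2% in parotid and 0.661% in pancreas, but on pair sums of 10.2 and 14.2 TPM, near the limit of 10 TPM.

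Troponin C split the pancreas libraries in the same direction, with slow shares of 42.7% and 39.1% in pancreas 2 and 4 against 7.08%, 26.6% and 9.46% in pancreas 1, 3 and 5. It was 17.3% slow in sublingual 3 and 35.6% in sublingual 1. Its highest slow shares were 73.4% and 91.9% in sublingual 4 and 5, 94.2% in submandibular 3, 83.6% and 72.5% in parotid 3 and 5, and 75.8% to 88.3% in liver 3 to 5. In these 8 libraries with the highest shares the 36 genes summed to at most 367 TPM, and TNNC1 was at 13 to 31.1 TPM. Parotid 1 mixed its pairs: its regulatory light chain was 78.5% slow, above every other library, while its troponin C was 17.3% slow. The calsequestrin pair reached 10 TPM in parotid 1 (4.46% CASQ2) and sublingual 2 (0.991%) alone.

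**Figure D4:**
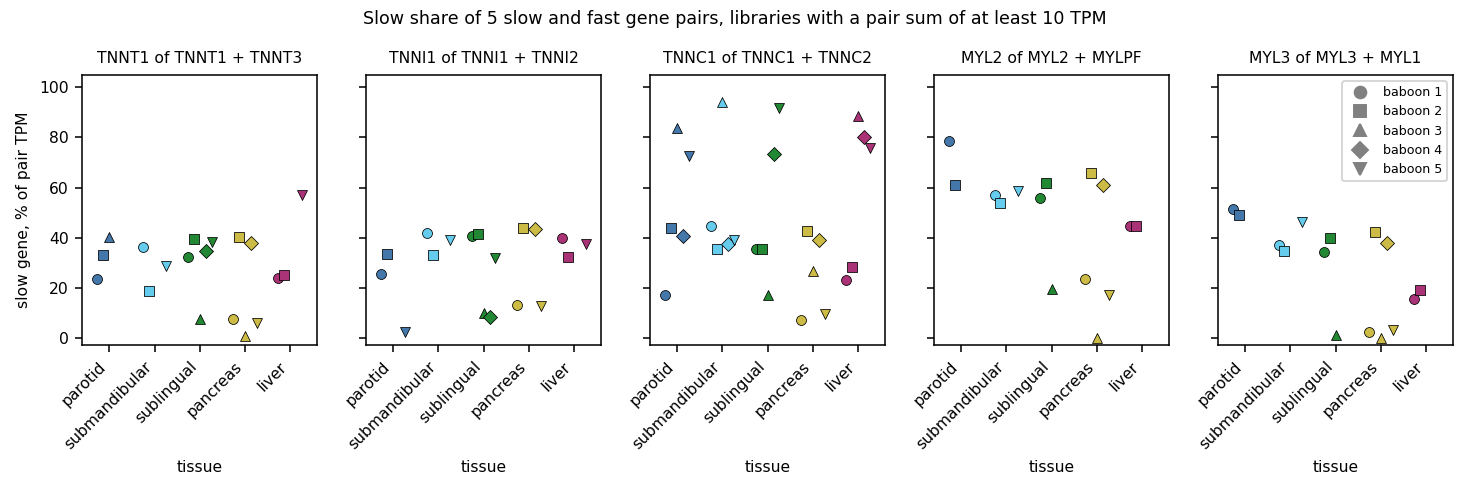
Slow gene as a percentage of the summed TPM of each slow and fast pair, by tissue, for libraries in which the pair reached 10 TPM; symbols mark the animal. Pancreas 2 and 4 lie near sublingual 2 in troponin T, troponin I and both light chain pairs, and pancreas 1 and 5 and sublingual 3 lie below them in each.

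The fast heavy chains made the same split visible inside the fast list. MYH2, the heavy chain of type 2A fibres, was at 2172 TPM and MYH1 at 37.5 TPM in sublingual 2, so MYH1 was 0.0173 of MYH2. The ratio was 0.0225 in pancreas 2 and 0.0258 in submandibular 2. In pancreas 1 (10.8 TPM of MYH1), pancreas 5 (9.30 TPM) and sublingual 3 (17.7 TPM), MYH1 was the higher of the pair, by 2.19, 3.21 and 3.38 times. Liver 1 and 2 were close to even, at 0.942 and 0.853. MYH4, the type 2B heavy chain, was at 0.0766 TPM in sublingual 2 and at most 1.52 TPM elsewhere. MYH1 and MYH2 are near-identical copies and direct neighbours in the RefSeq gene table (assembly Panubis1.0), so the division of reads between them is uncertain.

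Expressed relative to sublingual 2, the 24 other libraries held the 36 genes at a median of 0.0217% to 0.928% of its level. Pancreas 2 held them at a median of 0.581% (quartiles 0.536% and 0.664%) and pancreas 4 at 0.390% (quartiles 0.362% and 0.444%), so the genes between the quartiles kept close to the proportions they had in sublingual 2. Similar evenness was seen in submandibular 1 (median 0.236%, quartiles 0.217% and 0.265%), submandibular 2 (0.812%, 0.725% and 0.975%) and sublingual 1 (0.533%, 0.467% and 0.634%). The 12 fast genes spanned 0.413% to 0.761% in pancreas 2 and 0.353% to 0.459% in pancreas 4. In sublingual 3 the fast genes stood 8.31 times higher on this scale than the slow genes (ratio of the medians), in pancreas 1 5.55 times and in pancreas 5 6.23 times. The ratio was 0.899 in pancreas 2, 1.01 in pancreas 4 and 1.03 in submandibular 1. It was 1.24 in submandibular 2, and 2.03 and 2.02 in liver 1 and 2. Among libraries with little muscle RNA it was 7.12 in pancreas 3, 6.00 in submandibular 4, 3.78 in parotid 4 and 3.45 in liver 4. It was 0.431 in sublingual 5 and 0.444 in submandibular 3. Parotid 1 was uneven within the fast list, whose genes ran from 0.191% (MYLPF) to 9.95% (ACTN3) of the sublingual 2 level.

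**Figure D5:**
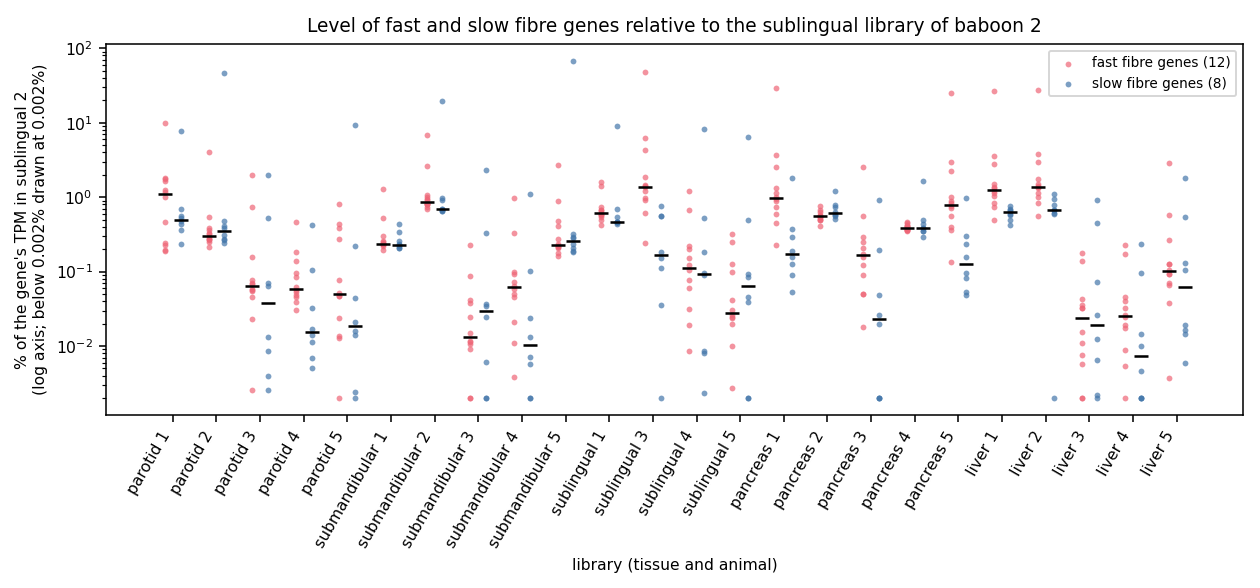
Level of each fast fibre gene (12, red) and slow fibre gene (8, blue) in the 24 other libraries as a percentage of its TPM in sublingual 2, on a log axis; bars are medians, and values below 0.002% are drawn at 0.002%. Red and blue bars nearly coincide in pancreas 2 and 4 and submandibular 1. Red lies far above blue in pancreas 1, 3 and 5, sublingual 3 and submandibular 4, and blue lies above red in sublingual 5 and submandibular 3.

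Genes that define other organs were also found at low levels away from their own organ. Hepatocyte markers stood at a median of 0.279% to 1.98% of their liver level in the 20 libraries of other tissues, and pancreatic acinar markers at 0.116% to 1.92% of their pancreas level. Stratified squamous markers, set against sublingual 1 as the library highest in them, had medians from 0.000562% to 40.8% over the other 24 libraries. The highest was sublingual 4, and parotid 4, submandibular 3, pancreas 1 and 4, and liver 1 and 4 were all at or below 0.00175%. Where the low muscle RNA of the 24 libraries came from was not tested.

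Tissues were compared gene by gene in 1 model over the 14991 genes whose mean reached 1 TPM in some tissue, with tissue and animal as terms. A call needed an adjusted p under 0.05 and a log2 fold change of 1 or more in size. All 36 muscle genes were tested. Of them, 1 was called higher in sublingual gland than in pancreas and 0 lower, where 9.47% of all genes were called, 6.97% higher and 2.49% lower. The balance over all genes turned under other scalings, with 641 higher and 1010 lower under TMM and 671 higher and 1006 lower under median-of-ratios scaling, against 1045 and 374. The called muscle gene was TPM2, with a log2 fold change of 2.71 (SE 0.73, higher in 5 of 5 animals, adjusted p = 0.0234 by limma). Without sublingual 2 it was 1.71 (SE 0.54, adjusted p = 0.0256 by limma). The call was lost under both other scalings of the libraries, with adjusted p = 0.144 and 0.140 by limma, without the animal term, with adjusted p = 0.0755, and with only the compared tissues in the fit, with adjusted p = 0.0914. Leaving out all libraries of baboon 2 or of baboon 3 also ended it, with adjusted p = 0.0508 and 0.123 by limma. Smooth muscle and myoepithelial markers summed to 283 to 1319 TPM in sublingual gland, with sublingual 2 lowest, and to 52.6 to 107 TPM in pancreas, and their part in the TPM2 difference was not tested.

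Over the 36 genes the median log2 fold change from pancreas to sublingual gland was 1.15, beside 0.63 over all genes tested. All 36 were positive, with 5 at an unadjusted p under 0.05 in limma (31.0% of all genes). NEB, TTN, CAV3 and CACNA1S reached the mean of 1 TPM only through sublingual 2. Their positive sign in the sublingual comparisons, and their place in the counts and medians there, thus followed from the filter and add no support. Without sublingual 2, 32 of the 36 were tested, their median was -0.11 beside 0.83 over all genes, 13 of the 32 were positive, and 1 was called (26.6% of all genes). TNNC1, singled out after its values were seen, came next to TPM2 with a log2 fold change of 2.39 (SE 0.79, higher in 5 of 5 animals, adjusted p = 0.0571 by limma). It passed when the minimum mean was 5 TPM (adjusted p = 0.0488) or the pseudocount 0.1 (adjusted p = 0.0437), and was 1.18 without sublingual 2 (adjusted p = 0.0734 by limma). ACTA1, by contrast, had a log2 fold change of 0.57 (SE 1.28, higher in 3 of 5 animals, adjusted p = 0.765 by limma), which became -0.87 without sublingual 2 and -0.17 and -0.16 under the other scalings.

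None of the 36 was called between parotid and pancreas (3.82% of all genes), with 2 at an unadjusted p under 0.05 in limma (18.5% of all genes). Their median log2 fold change was -0.70, beside 0.45 over all genes, and 9 of 36 were positive. MYL1 had the largest difference, a log2 fold change of -2.51 that was negative in 5 of 5 animals (adjusted p = 0.258 by limma). Between submandibular gland and pancreas 0 were called (4.08% of all genes) and 0 had an unadjusted p under 0.05 in limma (12.2%), with a median of -0.71 beside 0.17 over all genes. Between pancreas and liver 0 were called (17.5% of all genes), again with 0 at an unadjusted p under 0.05 in limma (28.9%), and the median was 0.42 beside -0.44 over all genes. These 3 comparisons and the sublingual one share the pancreas libraries. They also share 1 estimate of spread per gene over all 25 libraries, sublingual 2 included. With only the 2 compared tissues in the fit, 7 of 36 had an unadjusted p under 0.05 in limma for parotid (2009 of 14991 genes). For submandibular gland it was 9 of 36 (2273 of 14991 genes), and between pancreas and liver 0 of 36 (9815 of 14991 genes). In these fits 0 of the 36 were called.

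Between the glands, 0 of the 36 were called in sublingual against parotid gland (0.113% of all genes) and 0 in sublingual against submandibular gland (0.0667%). At an unadjusted p under 0.05 in limma there were 17 of 36 against parotid (9.13% of all genes) and 15 of 36 against submandibular gland (14.1%). Their median log2 fold changes were 2.07 and 1.97, beside 0.17 and 0.44 over all genes. The 36 include NEB, TTN, CAV3 and CACNA1S, which were tested only through sublingual 2 and lend these counts and medians no support. Without sublingual 2 these counts were 1 of 32 (16.8% of all genes) and 2 of 32 (28.7%), with medians of 0.78 and 0.71 beside 0.38 and 0.64. The unadjusted counts also depended on the scaling and on the animal term. Against parotid, 1 of 36 passed under TMM scaling (15.8% of all genes), 1 under median-of-ratios scaling (16%) and 4 without the animal term (7.88%). Against submandibular gland, 1 of 36 passed under TMM scaling (13%), 1 under median-of-ratios scaling (13.3%) and 3 without the animal term (12.5%). The smallest p belonged to CSRP3 against parotid, with a log2 fold change of 2.42 (adjusted p = 0.256 by limma), and to TNNI2 against submandibular gland, with 2.99 (adjusted p = 0.208 by limma). Without sublingual 2 these were 1.14 (adjusted p = 0.171 by limma) and 1.85 (adjusted p = 0.120 by limma).

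The muscle programme beyond the 36 genes was read from 4 further lists, of which 83 of 88 genes had a row and 66 were highest in sublingual 2. Of the further structural and contractile genes this held for 29 of 30, of excitation and calcium genes for 16 of 21, of muscle energy genes for 12 of 17, and of muscle transcription factors and satellite cell genes for 9 of 15. Among the structural genes with the highest means, the small heat shock protein HSPB7 was at 1088 TPM in sublingual 2 and at most 10.4 TPM elsewhere, and the actin-anchoring protein NRAP at 570.4 TPM. HSPB6 and TPM3 had higher means than these, and their levels are not given here. The structural list was not confined to sublingual gland. Its highest sum was 9810 TPM there, 838 TPM in submandibular gland, 732 TPM in parotid, 141 TPM in liver and 89.0 TPM in pancreas. Of the excitation genes, STAC3, a partner of the voltage sensor, was at 533 TPM and HRC, a calcium-binding protein of the reticulum, at 145 TPM. The muscle isoform of phosphoglycerate mutase, PGAM2, reached 1136 TPM, while the widely expressed enolase ENO1, with 34 TPM in sublingual 2, was at 352 TPM in sublingual 1. Of the factors that drive the muscle programme, singled out after their values were seen, MYF6 was at 107 TPM, MYOG at 33.3, MYOD1 at 6.90 and MYF5 at 2.59 TPM in sublingual 2, and MYF5 was listed at 0 in the other 24 libraries.

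Of these lists, 71 genes entered the model. Between sublingual gland and pancreas, 7 were called higher and 1 lower, where 6.97% of all genes were called higher and 2.49% lower. Of the higher ones, HRC had a log2 fold change of 2.75 (SE 0.51, adjusted p = 0.00127 by limma), and 2.01 without sublingual 2 (SE 0.35, adjusted p = 0.000447 by limma). Without sublingual 2, 44 of the 71 were tested, since the others reached the mean of 1 TPM only with that library. Of the 44, 8 were called higher and 1 lower in sublingual gland than in pancreas. Over all 14973 genes of that fit, 3611 were called higher and 376 lower (26.6% called).

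Heart muscle shares several of the slow genes, so its own markers were read beside them. The 9 of 10 cardiac markers with a row summed to 46.2 TPM in sublingual 2 and to between 0.971 and 35.1 TPM elsewhere. The natriuretic peptide genes NPPA and NPPB, which define atrial and stressed heart muscle, were listed at 0 in sublingual 2. Cardiac troponin I (TNNI3) was at 27.2 TPM there and NKX2-5 at 10.1 TPM, against 5817 TPM of slow troponin I (TNNI1).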

How the data were processed

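The authors deposited a table of TPM per gene for 25 libraries. Kallisto is among the tools of the submitters' processing notes. Its version, index and genome build are not given in the sources used here, so the RefSeq gene table (Panubis1.0) served only for names and neighbours. All 36 genes matched it. Library totals were 999999.5 to 1000000.6 TPM. Because TPM keeps no depth, no counting error is given. Precision rests on the spread over 5 animals.

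The members and lists were chosen with earlier results of these data known. Values were given for the 3 highest members of each role, for fast and slow pairs and for called genes, and other muscle lists by their highest genes. Others were singled out after their values were seen. Some genes of the other muscle lists are not reported here by name.

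For the tests, limma 3.58.1 (R 4.3.3) was applied to log2(TPM + 1) (tissue and animal as terms, eBayes with trend, 6 comparisons), with Benjamini-Hochberg adjustment over all 14991 genes. The scripts were tested on simulated data. Animal numbers in the labels pair the libraries. Deviations from tissue means correlated at 0.161 within animals (50 pairs of libraries) and -0.0354 between animals (200 pairs). Alternatives were no replicate block, only the compared tissues, TMM and median-of-ratios scaling, other filters, a pseudocount of 0.1, and leaving out animals or sublingual 2. Sums and shares used Python 3.11.15 with pandas 2.3.3 and numpy 2.4.6, and figures matplotlib 3.10.9.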

Additional observations from a re-analysis of the deposited data

Results flagged for a closer look

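In 30 of 195 sets of 5 libraries (39 measures in 5 tissues), 1 library lay far from the other 4 on the log2(TPM + 1) scale, by the gap to its nearest neighbour as a share of the range. For a set of normally distributed values chance gives about 1 in 20. The 195 sets are not independent, because the genes vary together within a library and the sums repeat them. Their count can therefore not be set against that rate. Of the 30, 17 were in sublingual gland, 7 in pancreas, 3 each in parotid and submandibular gland and 0 in liver.

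All 17 of the sublingual cases had sublingual 2 as the highest library: the sum of all members at 216539 TPM, the sum of slow members at 33937 TPM, TPM2 at 12666, TCAP at 11541, TNNT1 at 5915, TNNI1 at 5817, TNNC1 at 5783, MYBPC1 at 1288, CSRP3 at 698, ACTN2 at 643, LDB3 at 612, CKMT2 at 254, NEB at 116, CAV3 at 94.9, CACNA1S at 50.6, TTN at 38.9 and CASQ2 at 6.36 TPM.

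In pancreas all 7 cases had the library of baboon 3 as the lowest: the sum of all members at 157 TPM, ACTA1 at 8.90, TNNI2 at 7.44, CKM at 3.97, MYOZ1 at 1.15, MYBPC1 at 0.257 and SLN at 0 TPM. In parotid, baboon 1 was highest in NEB (1.85 TPM) and CACNA1S (0.924 TPM), and baboon 3 in MYH1 (0.751 TPM). In submandibular gland, baboon 2 was highest in ACTN3 (9.87 TPM), TTN (0.420 TPM) and CACNA1S (0.405 TPM).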

How the results depend on the processing

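The count of members called between sublingual gland and pancreas (1) was 0 with no replicate block, with only the 2 compared tissues in the fit, and under TMM or median-of-ratios scaling. It was 2 with a minimum mean of 5 TPM or a pseudocount of 0.1, and 0 to 1 when an animal was left out. The other 5 counts stayed at 0 under every alternative run, and the replicate block changed no other call. The members' median in that comparison turned to -0.11 without sublingual 2 and ran from -0.28 to 1.94 when an animal was left out, with -0.28 without baboon 2. The log2 fold change of ACTA1 turned to -0.17 under TMM, -0.16 under median-of-ratios scaling and -0.87 without sublingual 2, and ran from -1.20 to 1.93 when an animal was left out (-0.36 without baboon 3). That of MB between sublingual and submandibular gland ran from -2.10 to 0.61 (0.61 without baboon 4, 0.20 without baboon 5). The causes were not tested. TMM moved the median of all genes between sublingual gland and pancreas from 0.63 to 0.10, and that of the members from 1.15 to 0.74. Depth is unknown, so a gene listed at 0 cannot be given an upper limit.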
